A study of Mus musculus with 2 samples.

Results

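The transcripts described here are those of the replication-dependent histone genes, read in mouse pancreatic islets by 55 probes of 49 gene names, out of 55681 gene probes on the array. Members were all gene probes whose name in the scanner files starts with Hist1h, Hist2h, Hist3h or Hist4h, and they fell into 6 probes for the linker histone H1, 15 for H2A, 12 for H2B, 8 for H3 and 14 for H4. Of these, 42 probes of 38 gene names had signal clear of background on each array in at least 1 channel and were tested (4, 13, 8, 5 and 12 in the same order), and 13 were too dim.

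Islets came from knock-in mice carrying RbΔK7, a retinoblastoma protein that resists phosphorylation, and from control mice. Each of 2 two-colour arrays held 1 mutant islet sample labelled with Cy5 and 1 control islet sample labelled with Cy3, from pairs that were grown and harvested independently per the series design. Age, sex, strain, other alleles and the number of animals behind a sample are not given in the sources used here. Neither array had its dyes exchanged and both lay on 1 slide, so genotype and dye cannot be told apart, and ratios below are log2 of mutant over control.

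Replication-dependent histone genes supply the proteins that wrap newly made DNA, and they lie in clusters, of which the largest, Hist1, is on mouse chromosome 13. H2A, H2B, H3 and H4 form the nucleosome core and H1 binds the linker DNA between cores. Their main mRNAs end in a conserved stem-loop in place of a poly(A) tail, are processed with the stem-loop binding protein Slbp, and accumulate in S phase. Some of these genes also give polyadenylated transcripts that run past the stem-loop. Rb holds back E2F factors, which activate genes of S phase entry. The amplification kit named in the labels copies RNA from an oligo-dT primer. A probe that lies past the stem-loop of its gene reads only transcripts that run past it. For a probe before the stem-loop, the mRNA forms cannot be told apart from these files.

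The stem-loop was looked for in the probes on the strand listed in the scanner files, as GGNNCTTNTNAGNNCC. It was found in 6 of the 55 histone probes and in 7 of all 55681 probes (0.0126%). The windows are shown because they tell which probes reach the 3′ end of the mature, non-polyadenylated mRNA. Capitals mark the 16 bases of the stem-loop, and 5 bases are given before it and up to 5 after it. Positions are those of the whole 60-base probe on mm9.
Hist2h2aa1, chr3:96049949-96050008, plus strand: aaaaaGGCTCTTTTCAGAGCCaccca
Hist2h2bb, chr3:96074056-96074115, plus strand: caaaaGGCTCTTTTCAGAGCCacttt
Hist1h3i, chr13:21874784-21874843, minus strand: caaaaGGCTCTTTTCAGAGCCccctc
Hist1h4m, chr13:21903960-21904019, plus strand: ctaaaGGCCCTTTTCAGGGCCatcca
Hist1h3a, chr13:23853756-23853815, minus strand: ccaaaGGCTCTTTTCAGAGCCaca
Hist1h3g, chr13:23627719-23627778, plus strand: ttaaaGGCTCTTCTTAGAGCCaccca
The first 4 were tested and the last 2 were too dim. In these probes the loop starts between bases 384 and 495 of the transcript. AATAAA, the sequence of the poly(A) signal, stood in 2 histone probes (3.64%) against 10.1% of all probes, and ATTAAA in 2 (3.64%) against 3.95%. These were counted by sequence alone, and the AATAAA of the Hist1h2ag probe overlaps the end of the coding sequence.

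Several probes cannot be assigned to a single gene, because the coding sequences are nearly alike. Of the 55 probes, 15 list more than 1 RefSeq transcript, up to 4. The H2A probes near the end of the coding sequence show how close some copies are, and 4 of the 8 are given here. Not given are the least alike to Hist1h2ah. These are Hist2h2ac, with 13 of 57 bases different, and Hist2h2ab, too dim to test, with 23 of 55. Capitals mark bases that differ from the Hist1h2ah probe where they overlap, counted without gaps.
Hist1h2ah, chr13:22127035-22127094, minus strand: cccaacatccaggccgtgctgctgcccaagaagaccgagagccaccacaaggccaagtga
Hist1h2ak, chr13:21845304-21845363, minus strand: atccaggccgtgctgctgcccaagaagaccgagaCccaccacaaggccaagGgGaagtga
Hist1h2af, chr13:23626113-23626172, plus strand: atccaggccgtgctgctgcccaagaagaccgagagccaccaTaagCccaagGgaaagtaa
Hist2h2aa2, chr3:96049837-96049896, plus strand: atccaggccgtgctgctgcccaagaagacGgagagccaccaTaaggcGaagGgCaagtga
Over the 54 bases that each shares with Hist1h2ah, Hist1h2ak and Hist1h2af differed at 3 and Hist2h2aa2 at 5. The ratios of such probes are therefore not independent values of separate genes.

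Most histone probes were lower in the mutant samples than in the control samples after intensity-dependent normalization, but no probe passed the test. Of the 42 tested, 32 were below 0 on both arrays, against 25.3% of all tested probes, and 1 was above 0 on both, against 32.3%. The remaining 9 had opposite signs on the 2 arrays. The histone probes had a median ratio of -0.24 on the array of replicate 1 and of -0.43 on that of replicate 2 (median of the probe means -0.33, SD of the array medians 0.13, n = 2). Over all 22266 tested probes the median was 0.02 on each array. In bulk samples, fewer cells of a type and less RNA per cell cannot be told apart.

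With limma's moderated test and Benjamini-Hochberg adjustment over 22266 probes, 0 histone probes were higher and 0 lower at an adjusted p under 0.05, against 0.368% and 0.0135% of all tested probes. Their adjusted p values ran from 0.0948 to 0.982. At an unadjusted p under 0.05, 18 were lower and 0 higher, against 3.19% and 8.16% of all tested probes. These 18 were 2 of H1, 9 of H2A, 3 of H2B, 2 of H3 and 2 of H4. The absence of calls depended on the setting: with no filter on dim probes, and also with a robust prior trended on mean log2 intensity, the probes of Hist1h2bc, Hist2h2aa1 and Hist2h3c2-ps and 1 of Hist1h4i passed as lower (limma adjusted p from 0.0253 to 0.0403 and from 0.0139 to 0.0498). With that trend and no robust step, 0 passed, and with the robust prior trended on the mean ratio 0 passed.

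Without intensity-dependent normalization, the sign of the histone ratios depended on the probes used to centre the arrays. With each array centred on the median of its gene probes, the histone medians were 0.26 and 0.56 and 30 of 42 probes were above 0 on both arrays. In that setting the whole array was shifted too: all tested probes had medians of 0.39 and 0.84, 87.3% were above 0 on both arrays, and 29.9% passed as higher and 0.319% as lower. Relative to those medians the histone medians differed by -0.14 and -0.28, and 28 of 42 lay below the median of all tested probes on both arrays, against 36.6% of all. With each array centred on its tested probes, still without loess, 33 of 42 histone probes had a mean ratio below 0, and the median of the probe means was -0.20, against 0.0029 for all tested probes. The 2 histone probes that passed with centring on all gene probes were higher, Hist3h2ba (0.88 and 1.03, limma adjusted p = 0.0250) and Hist1h3c (0.66 and 0.98, limma adjusted p = 0.0466). The labels and files give no spike-in level or other scale that would place 0.

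**Figure D1:**
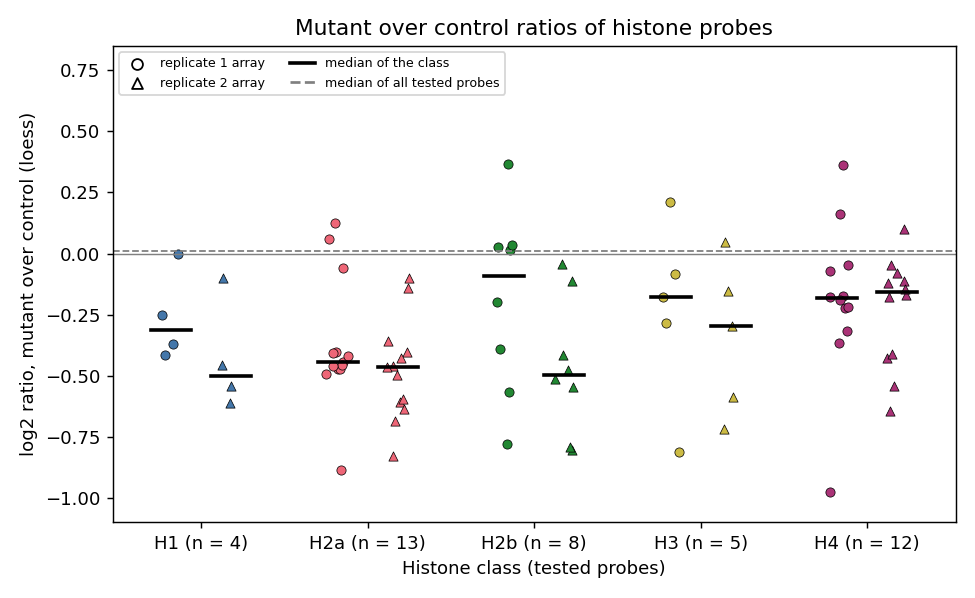
Log2 ratios of mutant over control after loess (y axis) for the 42 tested histone probes by class (x axis); circles are the replicate 1 array and triangles the replicate 2 array, bars are class medians and the dashed line is the median of all tested probes. The medians of all 5 classes lie below 0 on both arrays, from -0.09 for H2B on the replicate 1 array to -0.50 for H1 and H2B on the replicate 2 array.

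The linker histone genes had all 4 tested probes below 0 on both arrays, with class medians of -0.31 and -0.50. Hist1h1c (now H1f2, chr13:23832018-23832077), which encodes a common somatic H1, had log2 levels of 10.42 and 9.55 in the mutant samples and of 10.84 and 10.16 in the control samples of replicates 1 and 2. The mutant sample was the lower of each pair, yet the mutant level of replicate 1 lay above the control level of replicate 2. Its mean ratio was -0.51 ± 0.14 (SD, n = 2; limma adjusted p = 0.259). Hist1h1e (now H1f4, chr13:23713707-23713766), another somatic H1, had 10.26 and 9.89 in the mutant samples and 10.26 and 10.43 in the control samples. Its difference was thus in the replicate 2 pair, with ratios of -0.0013 and -0.54. Hist1h1b (now H1f5) had ratios of -0.25 and -0.46. Hist1h1t (now H1f6), the testis H1, had -0.37 and -0.10, and it was well above background on 1 of 2 arrays in either channel. None of 5 testis markers (Prm1, Prm2, Tnp1, Tnp2 and Ddx4) was tested, all being too dim.

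H2A held 9 of the 18 probes with an unadjusted p under 0.05, and 11 of its 13 tested probes were below 0 on both arrays, with medians of -0.44 and -0.46. The 4 gene names chosen for brightness were Hist1h2af, Hist1h2ak, Hist1h2ah and Hist2h2aa2, whose sequences are given above. Hist1h2ah had log2 levels of 12.34 and 12.85 in the mutant samples and 12.81 and 13.35 in the control samples. The 2 pairs differed in level from each other by at least as much as mutant and control did, and the ratio within each array was -0.47 and -0.50 (limma adjusted p = 0.266). Together with Hist1h2ag, Hist1h2an and Hist2h2ac, 7 tested probes start between bases 327 and 367, overlap in sequence and had ratios from -0.47 to -0.40 for replicate 1 and from -0.61 to -0.36 for replicate 2. These probes share most of their bases, so they amount to fewer than 7 separate readings. The other tested probe of Hist1h2ak, at the start of its transcript, does not belong to that stretch and had -0.44 and -0.63.

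Hist2h2aa1 (now H2ac18), whose probe holds the stem-loop, had the lowest mean of the class. The loop starts near the beginning of this probe, so most of the probe lies past it. Its log2 levels were 11.51 and 11.28 in the mutant samples and 12.39 and 11.97 in the control samples, so the groups did not overlap. The mean ratio was -0.79 ± 0.14 (SD, n = 2), 1.72-fold lower, with limma adjusted p = 0.111. Its probe is placed at chr3:96049949-96050008. The probe of the near-identical Hist2h2aa2 (now H2ac19), which had -0.46 and -0.36, is placed at chr3:96049837-96049896, also on the plus strand. By this placement the 2 probes lie next to each other, so their values cannot be taken as those of 2 separate genes. Hist1h2aa (now H2ac1), a testis H2A, had the highest mean of the class, with ratios of -0.06 and -0.10. This probe was dim, with a mean log2 intensity of 6.57, and its control channel was well above background on 1 of 2 arrays.

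H2B differed more between arrays, with medians of -0.09 (replicate 1) and -0.50 (replicate 2), and with 4 of 8 probes below 0 on both. Hist1h2bc (now H2bc4, chr13:23784254-23784313) had log2 levels of 10.88 and 10.85 in the mutant samples and 11.66 and 11.65 in the control samples. Both mutant samples were below both controls, by more than samples of a genotype differed from each other. Its mean ratio of -0.79 ± 0.018 (SD, n = 2) is 1.73-fold lower and had the lowest adjusted p of the histone probes (limma, 0.0948). Hist1h2bm (now H2bc14), on a coding probe that lists 4 RefSeq transcripts, had levels of 9.73 and 9.70 in the mutant samples and 10.30 and 10.25 in the control samples, which did not overlap. Its ratios were -0.57 and -0.54 (limma adjusted p = 0.204). Hist1h2ba, a testis H2B, had -0.20 and -0.48. Hist3h2ba (now H2bu2, chr11:58762964-58763023) had the highest mean of all histone probes, with levels of 8.93 and 9.06 in the mutant samples and 8.57 and 9.10 in the control samples. These overlapped, and its ratios had opposite signs, 0.37 and -0.04.

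H3 had medians of -0.18 and -0.30 over 5 tested probes, of which 4 were below 0 on both arrays. Hist2h3c2-ps (now H3c15), whose probe starts at base 957 and is not placed on mm9 in the files, had log2 levels of 7.44 and 7.29 in the mutant samples and 8.25 and 8.01 in the control samples. The groups did not overlap, and the mean ratio was -0.77 ± 0.065 (SD, n = 2; limma adjusted p = 0.108). Hist2h3c1 (now H3c14) had ratios of -0.28 and -0.59. Hist1h3d (now H3c4), whose probe lists 4 transcripts, had -0.18 and -0.30. Hist1h3c (now H3c3, chr13:23837328-23837387) was the 1 histone probe above 0 on both arrays, with levels of 8.25 and 8.15 in the mutant samples and 8.04 and 8.11 in the control samples. Its ratios were 0.21 and 0.05 (limma adjusted p = 0.796). The fifth, Hist1h3i, had -0.08 and -0.15, and its control channel did not clear background on any array.

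H4 had the smallest shift by the median of its probe means (-0.14), with array medians of -0.18 and -0.16 and 9 of 12 probes below 0 on both arrays. With median centring, H4 had medians that differed from those of all tested probes by -0.08 and 0.08, so its place relative to the array turned on the replicate 2 array. The probes early in the coding sequence are alike between genes, and 4 that list several transcripts had ratios from -0.22 to -0.07 and from -0.17 to 0.10. Capitals mark bases that differ from the Hist1h4j probe where they overlap.
Hist1h4j, chr13:21826989-21827048, plus strand: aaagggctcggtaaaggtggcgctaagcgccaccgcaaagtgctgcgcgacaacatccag
Hist1h4k, chr13:21842279-21842338, minus strand: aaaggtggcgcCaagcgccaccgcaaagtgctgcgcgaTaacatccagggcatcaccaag
Hist1h4c, chr13:23790223-23790282, minus strand: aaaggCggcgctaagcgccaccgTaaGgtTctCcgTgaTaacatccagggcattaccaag
Of the overlapping 48 bases, Hist1h4k differs at 2 and Hist1h4c at 7. Their ratios were -0.18 and -0.17 for this Hist1h4k probe and -0.07 and 0.10 for Hist1h4c. A second Hist1h4k probe, at base 252, had -0.22 and -0.18. Hist2h4 had -0.19 and -0.08 and Hist1h4d -0.18 and -0.11.

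Hist1h4i (now H4c9) was read by 3 tested probes that did not give 1 value. The probe that starts at base 574 (chr13:22132591-22132650) had log2 levels of 9.16 and 9.35 in the mutant samples and 10.14 and 10.00 in the control samples, which did not overlap. Its mean ratio of -0.81 ± 0.23 (SD, n = 2; limma adjusted p = 0.122), 1.75-fold lower, was the lowest of all histone probes. The probe at base 483 had -0.32 and -0.12, and the one at base 23 had -0.37 and -0.54. All 3 were below 0 on both arrays.

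**Figure D2:**
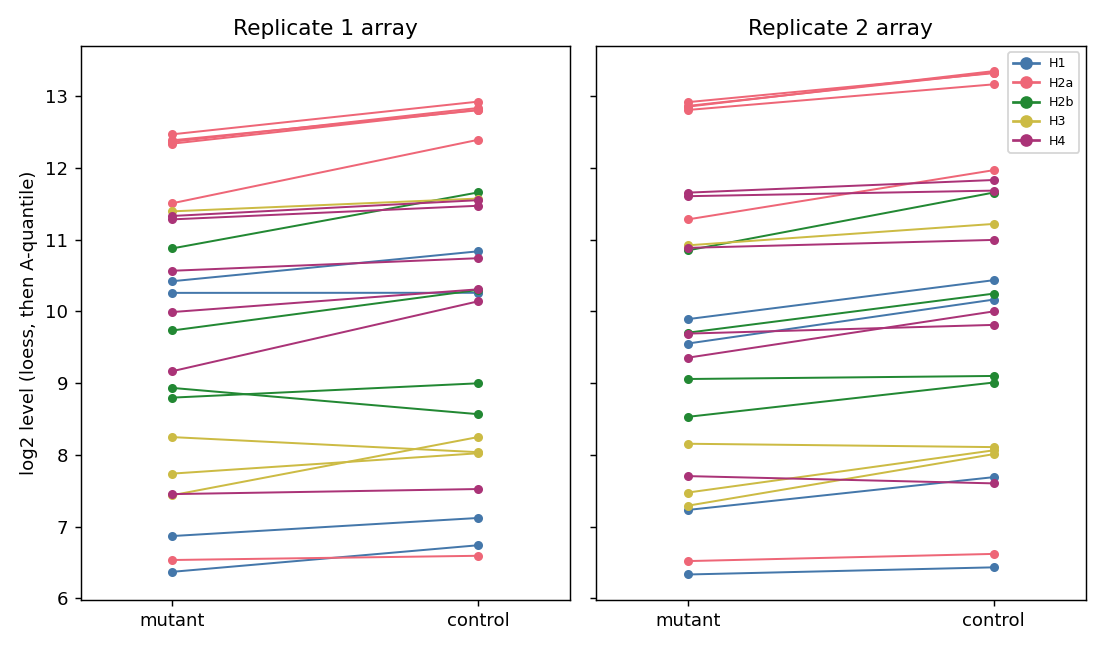
Log2 level after loess and A-quantile normalization (y axis) of 24 named histone probes in the mutant and control sample (x axis) of each array, one line per probe coloured by class. Most lines are higher at the control point, as for Hist1h2bc with 10.88 in the mutant and 11.66 in the control sample of replicate 1, and a line for Hist3h2ba on the replicate 1 array runs the other way, with 8.93 in the mutant and 8.57 in the control sample.

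Taking all 4 samples together, both mutant levels lay below both control levels for 18 of the 42 tested probes, against 15.6% of all tested probes. Both lay above both controls for 1, Hist1h3c, against 21.9%. By genomic cluster, the 31 tested probes named Hist1 had medians of -0.22 and -0.46, with 24 below 0 on both arrays. The 8 named Hist2, on chromosome 3 where placed, had -0.37 and -0.47, with 6 below 0 on both. The 3 probes named Hist3 or Hist4 had -0.05 and -0.14, with 2 below 0 on both. Pearson's r between the arrays was 0.42 over the 42 probes, against 0.23 over all tested probes. This is across probes, many of which share sequence, and both arrays share dye orientation and slide.

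The place of the probe in its transcript was set beside the ratios. Probes without a stem-loop were called early when they started before base 500 (base 1000 for H1) and late otherwise. These cutoffs do not mark the loop of each gene. The early Hist1h4i probe at base 483 starts beyond base 384, where the loop of the H4 gene Hist1h4m starts. No H1 probe held a loop. The early probes are therefore not all known to lie before the loop. The 28 early probes had medians of -0.24 and -0.42, and 24 of them were below 0 on both arrays. The 4 probes with the stem-loop had -0.03 and -0.46, with 2 below 0 on both. Just 2 of these 4 had both channels well above background on each array. The median of their mean log2 intensities was 7.07, against 9.66 for early and 8.32 for late probes. The offset of the background correction draws ratios of dim probes towards 0. The 10 late probes, which start beyond the first base of every loop found here, had -0.40 and -0.63, with 6 below 0 on both. The loops of their own genes were not located, so which of them read only transcripts past the loop was not settled. Late probes with the lowest ratios were Hist1h4i, Hist1h2bc and Hist2h3c2-ps, and the one with the highest was Hist3h2ba. No difference between these places was tested.

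**Figure D3:**
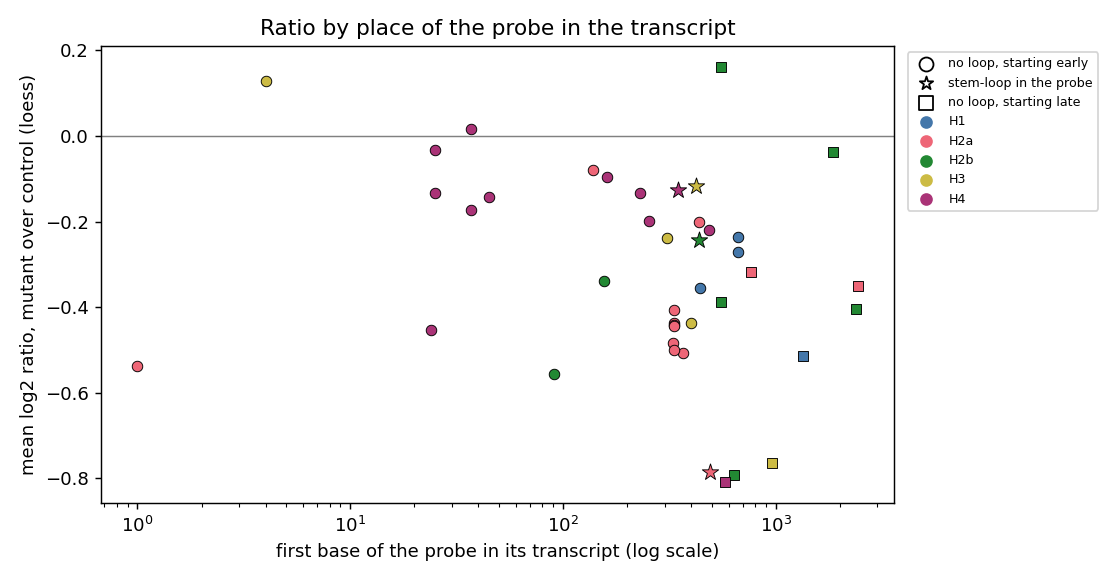
Mean log2 ratio of mutant over control after loess (y axis) against the first base of the probe in its transcript, plus 1, on a log axis (x axis), for the 42 tested histone probes; colour gives the class, and shape tells early probes (circles), probes with the stem-loop (stars) and late probes (squares). Among the 10 late probes the means reach from -0.81 for Hist1h4i to 0.16 for Hist3h2ba.

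Brightness and base composition moved with the ratios, and their part in the histone values was not tested. Histone probes were brighter than the tested probes as a whole, with a median mean log2 intensity of 9.20 against 7.79, and richer in G and C, with a median of 51.7% against 43.3%. With median centring, all tested probes with a mean log2 intensity below 8 had medians of 0.24 and 0.57, those from 8 to 10 had 0.54 and 1.07, those from 10 to 12 had 0.61 and 1.18, and those at 12 or more had 0.76 and 1.04. The 7 histone probes at 12 or more, the overlapping H2A probes described above, had 0.27 and 0.69 there. After loess they had -0.46 and -0.46, where the 1120 probes of that brightness had 0.01 and -0.12. In the dimmer bins the histone medians after loess were -0.08 and -0.42 below 8 (16 probes). They were -0.20 and -0.17 from 8 to 10 (11 probes) and -0.21 and -0.42 from 10 to 12 (8 probes). By base composition, the 433 tested probes with at least 60% G and C had loess medians of -0.09 and -0.16, and the 11 histone probes among them -0.28 and -0.36. Between 35% and 45%, the 11728 tested probes had 0.04 and 0.05 and the 7 histone probes -0.42 and -0.61.

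**Figure D4:**
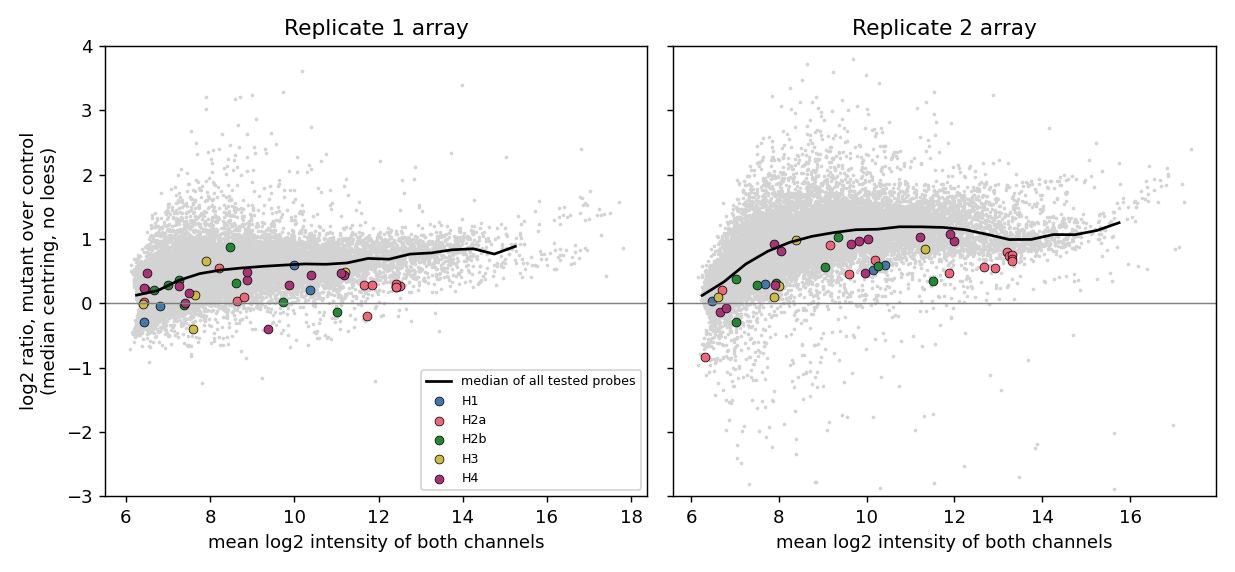
Log2 ratio of mutant over control with median centring and no loess (y axis) against the mean log2 intensity of both channels (x axis) on each array; grey points are tested probes, the black line is their running median and coloured points are histone probes by class. The median of all tested probes is higher at 12 or more than below 8 on both arrays, and on the replicate 2 array it is highest between 10 and 12. On both arrays 28 of 42 histone probes lie below the median of all tested probes over all intensities (0.39 and 0.84). Those 2 medians are not drawn, and probes below the black line were not counted.

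Probes that list several RefSeq transcripts and those that list at most 1 were both low. The 14 tested probes with several had medians of -0.34 and -0.38, and 13 were below 0 on both arrays. The 28 with at most 1 had -0.19 and -0.46, and 19 were below 0 on both. With Agilent's processed signals, normalized by the scanner software, the histone medians were -0.38 and -0.54.

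Other genes of histone supply and S phase were read on the same arrays. Each gene is given by its brightest tested probe. Some genes, among them Slbp, Mki67, Mcm3, Hjurp, Hat1 and H3f3b, had other tested probes, whose values are not reported here. Of 22 genes for histone mRNA synthesis and 3′ end processing, 1 of them listed under both its names (Srrt and Ars2), 18 were tested and 0 passed, with medians of -0.02 and 0.01. Slbp, the stem-loop binding protein gene, had 0.13 and -0.26, and Npat, the coactivator gene of histone transcription, was not tested, being too dim. The highest means were those of the cleavage factor genes Clp1 (0.35 and 0.27) and Pcf11 (0.17 and 0.31) and of Cstf2t (0.07 and 0.31). The lowest were those of the cap-binding gene Ncbp2 (-0.41 and -0.23), Cstf3 (-0.24 and -0.10) and Hinfp, an activator of H4 genes (-0.02 and -0.31). Among histone chaperone and assembly genes, 17 of 18 were tested and 0 passed, with medians of 0.03 and 0.09. Highest were the centromeric chaperone gene Hjurp (0.78 and 0.36), the chromatin assembly factor subunit Chaf1a (0.39 and 0.72) and the H4 acetyltransferase gene Hat1 (0.48 and 0.47). Lowest were the importin gene Ipo4 (-0.26 and -0.36), Hira, a chaperone gene of replication-independent H3 (-0.19 and -0.13), and Ubn1 (0.00 and -0.12).

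S phase and replication genes lay on the other side of 0 from the histone probes after loess. Of 24, 18 were tested, with medians of 0.48 and 0.51. On both arrays 15 were above 0 and 0 below 0, against 32.3% and 25.3% of all tested probes. Of the 18, 5 rose, against 0.368% of all tested probes. The 5 that rose were the helicase genes Mcm2 (1.33 and 1.20), Mcm4 (1.60 and 1.42), Mcm5 (1.36 and 1.11) and Mcm6 (1.34 and 1.16) and the licensing gene Cdt1 (1.07 and 1.32), with limma adjusted p from 0.030 to 0.047. The brighter of 2 tested Mcm3 probes (1.15 and 1.82) and the E2f1 probe (0.97 and 0.93, limma adjusted p = 0.0647) did not pass. The lowest were the ribonucleotide reductase gene Rrm2 (0.20 and -0.45), the cyclin gene Ccne1 (0.04 and -0.11) and the primase gene Prim1 (0.02 and 0.24). Mitosis genes had 8 of 14 tested and 0 passed, with medians of -0.05 and -0.22. Of the 8, 5 were below 0 and 0 above 0 on both arrays, against 25.3% and 32.3% of all tested probes. Mki67, a marker of cycling cells, had -0.28 and -0.22. The lowest means were those of Birc5 (-0.06 and -0.48), Mki67 and Ccnb1 (-0.17 and -0.28), and the highest those of Aurka (0.46 and -0.08), Cdc20 (0.39 and -0.15) and Top2a (0.14 and -0.13).

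Replication-independent histone genes, whose mRNAs are polyadenylated, had medians of -0.08 and -0.02 over 10 tested of 11, with 0 passed. H2afx, which gives both a stem-loop and a polyadenylated mRNA, had the lowest mean (-0.40 and -0.77), followed by H2afj (-0.45 and -0.35) and H3f3b (-0.37 and -0.12). H1f0, the linker histone gene of resting cells, had 0.31 and 0.17, H3f3a 0.22 and 0.12 and H2afz 0.07 and 0.20. The difference between these lists and the histone probes was not tested, and the lists share all 4 samples.

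**Figure D5:**
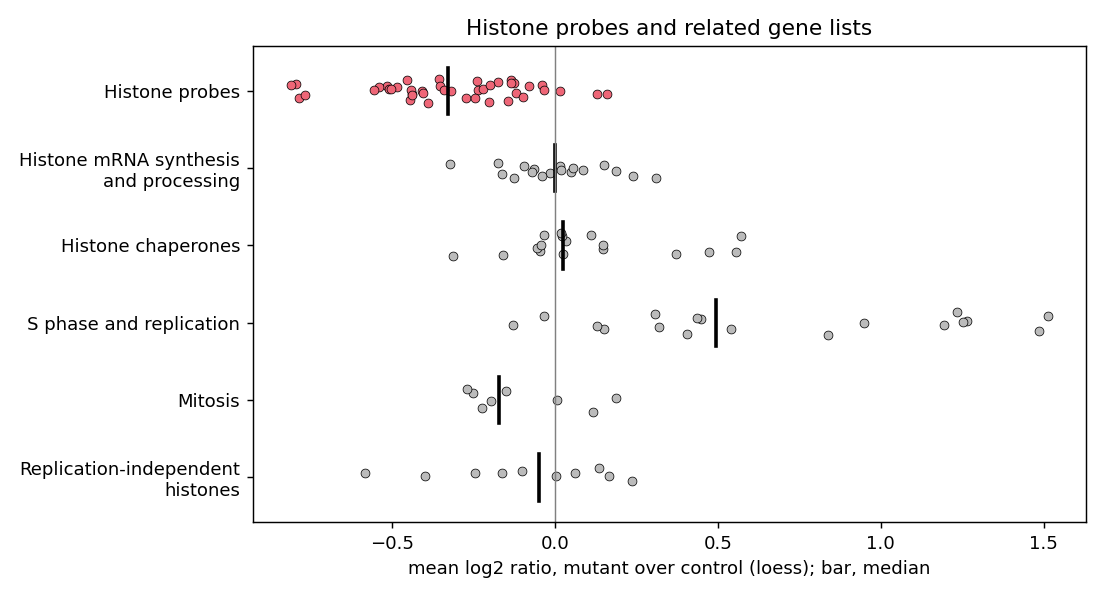
Mean log2 ratio of mutant over control after loess (x axis) for the 42 tested histone probes and for the tested genes of 5 related lists (rows), with a bar at each median. The histone bar, a median of probe means, is at -0.33. The S phase and replication genes have array medians of 0.48 and 0.51, which are a different measure from the bars and are not drawn.

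The mixture of cells differed between samples on the same arrays. Islet markers had median ratios of -0.14 and 0.83, and 0 of 8 passed. Their median log2 levels were 16.62 and 17.02 in the mutant samples and 16.24 and 16.25 in the control samples, so the hormones that define the tissue were present in all 4. All 5 stromal markers rose, against 0.368% of all tested probes, with medians of 2.69 and 1.89. Acinar markers had medians of 0.52 and -5.19, with a level of 12.01 in the mutant sample of replicate 2 against 17.74 in its control. In the duct list 1 of 4 and in the endothelial list 1 of 4 rose, and 0 of 3 tested leukocyte and 0 of 3 erythroid markers passed. The part of these shifts in the histone ratios was not tested.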

How the data were processed

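RNA of 2 mutant (Cy5) and 2 control (Cy3) islet samples was read on 2 arrays; the submitters' processing notes name Agilent Feature Extraction 10.7.3.1 as the image software. The deposited intensity values are, per the file headers, mean spot signals and median local backgrounds in each channel, and processed signals. The authors' deposited log10 ratios, in the scanner files and series matrix, differ by 0. 

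Background was taken off the intensities by normexp (offset 50) in limma 3.58.1 and R 4.3.3, and ratios were normalized by loess (span 0.3, control spots at weight 0) and averaged over spots of a probe. The offset draws ratios of dim probes towards 0. Control spots and 4 outlier spots per array were left out, and 0 were saturated. A probe was tested where at least 1 channel was well above background on each array. The test was limma's lmFit and eBayes against 0 (two-sided), and p-values were adjusted by Benjamini and Hochberg's method over 22266 probes. It rests on 1 residual degree of freedom a probe and 4.90 from the prior, so the number of arrays limits the precision. The log2 levels per sample, from the deposited intensities, were loess-normalized and then quantile-normalized between arrays on mean intensity. Well above background were 41.0% and 48.2% of mutant spots and 37.0% and 38.1% of control spots. The ratio within an array pairs mutant and control.

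Members and lists were chosen with earlier results of these data known. Named probes are, per class, those of the 4 brightest gene names and those with the highest and lowest mean ratio, with all that passed. From each related list they are the 3 highest, the 3 lowest and all that passed. A gene of a related or marker list is given by its tested probe of highest mean log2 intensity. Other probes are given to describe sequence or place. Current symbols come from RefSeq (GRCm38.p6), which matched 52 of 55 probes by accession. Alternatives were the background correction, normalization, filter, prior, fit by channel, probe choice and each array left out. Exons and UTRs were not analysed here.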

Additional observations from a re-analysis of the deposited data

How the results depend on the processing

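The probes used to centre the arrays set the sign of most histone ratios without loess. With 2 arrays, 1 dye orientation and 1 slide, no setting separates genotype from dye.

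The count of histone probes lower in the mutant, 0 as reported, was 2 with each array centred on its tested probes (Hist2h3c2-ps and Hist1h1t), 4 with no filter on dim probes, 4 with a robust prior trended on mean log2 intensity and 4 with a robust prior without trend. The 4 were Hist1h4i (base 574), Hist1h2bc, Hist2h2aa1 and Hist2h3c2-ps in each. The count of those higher was 2 with centring on all gene probes. Both counts were 0 in the other settings. Over all probes, 82 rose and 3 fell as reported, against 6664 and 71 with centring on all gene probes, 585 and 197 with centring on tested probes, 169 and 11 with a loess span of 0.7, 323 and 32 with no filter, 515 and 49 with the robust prior trended on intensity, 218 and 13 with that trend alone, 318 and 23 with the robust prior alone, 0 and 0 with the robust prior trended on the mean ratio, 26 and 1 with the brightest probe per gene name, and 0 and 0 with Agilent's processed signals, the series matrix, an offset of 0, and separate channels with no replicate block. The array is the pairing of the samples, and without that block 1497 probes had an unadjusted p under 0.05, against 2528 with it. The zero counts of histone calls went with 12 to 18 probes at an unadjusted p under 0.05, 8 without the block and 0 with the prior trended on the mean ratio. The priors with trend alone, robust alone and trend on the mean ratio were added after seeing the data. With 1 array left no test could be made.

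Centring on all gene probes gave class medians of 0.42 for all histone probes, 0.24 for H1, 0.46 for H2A, 0.30 for H2B, 0.19 for H3 and 0.62 for H4. Centring on tested probes gave -0.20 for all histone probes, -0.37 for H1, -0.16 for H2A, -0.32 for H2B, -0.42 for H3 and -0.0032 for H4. Agilent's signals, as the series matrix, gave -0.63 for H1, -0.42 for H2A and -0.17 for H4, and less the median of all tested probes -0.60 for H1 and -0.39 for H2A. An offset of 0 gave -0.56 for H1 and -0.21 for H4, a span of 0.7 gave -0.52 for H2A and -0.16 for H4, and both channels above background gave -0.34 for H3. Probes listing at most 1 transcript gave -0.40 for H2A and -0.12 for H3. The settings with a subtracted median or a transcript limit were chosen after seeing the data. Leaving out 1 array gave -0.43 to -0.24 for all histone probes, -0.50 to -0.31 for H1, -0.46 to -0.44 for H2A, -0.50 to -0.09 for H2B, -0.30 to -0.18 for H3 and -0.18 to -0.16 for H4. The H2B value rests on the replicate 2 array: without it the median is -0.09.

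Single probes turned sign with centring on all gene probes: Hist1h1c 0.36, Hist1h1e 0.60, Hist1h1b 0.13, Hist1h2af 0.50, Hist1h2ak 0.50, Hist1h2ah 0.46, Hist2h2aa2 0.54, Hist2h2aa1 0.13, Hist1h2aa 0.11, Hist1h2bc 0.11, Hist1h2bm 0.30, Hist1h2ba 0.44, Hist1h3d 0.67, Hist2h3c1 0.19, Hist1h4k 0.71, Hist2h4 0.77, Hist1h4d 0.74, and Hist1h4i 0.64 and 0.032. With centring on tested probes Hist1h3d was 0.048, Hist1h4k 0.088, Hist2h4 0.15, Hist1h4d 0.12, Hist1h4i 0.019 and Hist1h4c -0.026. Hist1h4c was -0.077 with Agilent's signals and the series matrix, -0.031 with an offset of 0 and from -0.071 without replicate 2 to 0.10 without replicate 1, and Hist3h2ba from -0.042 without replicate 1 to 0.37 without replicate 2. The causes of these changes were not tested.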
